A study of Mus musculus with 15 samples.

Results

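The genes described here encode the protein core of the spliceosome and the hnRNP proteins that coat nuclear pre-mRNA, measured in total and in polysome-bound RNA of mouse neural stem cells. Members were the probe sets (the small groups of probes that report 1 transcript on an Affymetrix array) whose single platform gene symbol began with Hnrnp, Srsf, Sf3a or Sf3b, Snrp, Lsm, Prpf or U2af. They numbered 151 of 22690 probe sets and stood for 67 of 12393 genes. The hnRNP family had 18 genes, the SR proteins 9, the SF3 complexes 9, the Snrp genes 8, the Lsm genes 10, the Prpf genes 10 and the U2af genes 3. A further 16 probe sets carried a family symbol beside that of another gene and were left out. For each of the 36 genes that had more than 1, the brightest probe set stood for the gene. Levels were compared only between arrays, never between probe sets.

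Introns are removed in the nucleus by the spliceosome, which assembles on each intron from small nuclear ribonucleoproteins, each a small RNA held in a ring of Sm or Lsm proteins. SR proteins and hnRNP proteins bind the pre-mRNA and raise or lower the use of splice sites, and several of them travel to the cytoplasm with the finished mRNA. Their own mRNAs are known for alternative forms with retained introns or so-called poison exons, which stay in the nucleus or are degraded, and through which several of these proteins limit their own synthesis.

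The 15 arrays came from primary neurosphere cultures of neural stem cells of female C57/B16 mice, 6 weeks old. Cultures had received CD95L-T4, a trimerized ligand for CD95 (Fas), a receptor known for inducing cell death, or had served as controls, and RNA was taken after 48 h either as total RNA (n = 4 control and n = 4 treated arrays) or as polysome-bound RNA (n = 4 control and n = 3 treated arrays). Titles call the replicates biological without naming animals or cultures, and groups were read from them, since the treatment field of treated samples gives no agent. A column kit had yielded the total RNA and phenol-chloroform extraction the polysomal RNA, whose molecule labels also differ (total RNA and polyA RNA), so that fraction, extraction and molecule label cannot be told apart. Between a polysomal and a total array, a normalised value compares a gene's share of each RNA and not its amount per cell. In such bulk samples fewer cells of a type and less RNA per cell cannot be told apart either.

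The arrays of a group correlated at 0.994 to 0.998 over all probe sets, and those of different fractions at 0.968 to 0.978. Of 9 neural stem cell markers, 7 lay above the 50th percentile of all probe sets, with Fabp7 at percentile 99.8. So did 3 of 6 oligodendrocyte lineage markers, up to percentile 99.5, 2 of 6 neuronal markers, up to 86.4, and 1 of 4 astrocyte markers, but 0 of 5 microglial, 0 of 4 endothelial and 0 of 4 fibroblast markers. Signals of the 15 probe sets for added poly-A control RNAs averaged 6.44 to 6.96 on the log2 scale in control total RNA and 7.24 to 7.70 in control polysomal RNA, and the 3′ minus 5′ difference of actin was 0.28 to 0.57 and 0.74 to 0.81. In control cultures these technical readings moved with the fraction. In treated cultures the poly-A signals overlapped, at 6.45 to 7.34 in total and 7.03 to 8.38 in polysomal RNA. The actin difference there was 0.32 to 0.46 and 0.59 to 1.03. The part of these readings in the fraction results was not tested. The member genes were bright, with a median percentile of 92.4, and only Lsm14a lay below the 25th percentile. Its values may not be above background, since the table gives no detection calls.

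The first question was how the mRNAs of these genes divided between polysomes and the whole cell without treatment. In control cultures 23 of the 67 genes were higher in polysomal than in total RNA, 28 were lower and 16 did not pass (limma, adjusted p under 0.05). These were 34.3% and 41.8% of the members, where over all genes 33.5% were higher and 23.2% lower, so that the members' share of higher genes lay near the background and their share of lower genes above it. Counted by probe sets, 40 of 151 were higher and 73 lower, where 56.1% of all probe sets passed in either direction. The groups did not overlap for 53 of the 67 member genes, against 6883 of all 12393 genes (55.5%). The family medians differed in sign. The median log2 fold change, polysomal over total, was 1.05 for the Lsm genes, 0.95 for the U2af genes and 0.60 for the Snrp genes, against -0.14 for the SR proteins, -0.15 for the Prpf genes, -0.28 for the SF3 genes and -0.56 for the hnRNP genes. The median of all genes was 0.10. The Prpf median was -0.10 without replicate 4 of control polysomal RNA. No test between families was made.

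**Figure D1:**
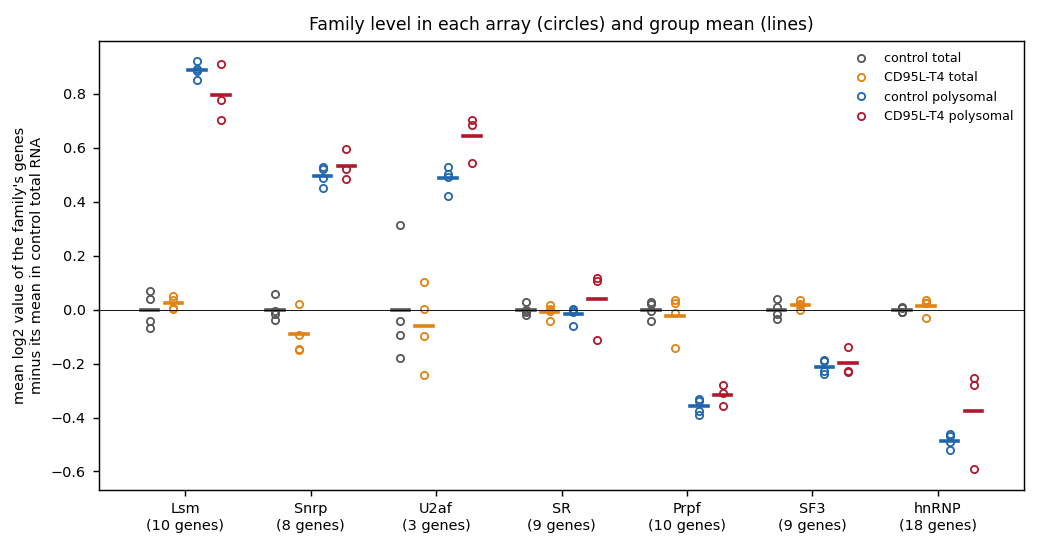
Mean log2 value of each family's genes in each of the 15 arrays, minus the family's mean in control total RNA; circles are arrays, lines group means, colours the 4 groups. The Lsm family lay 0.85 to 0.92 higher in the control polysomal arrays and the hnRNP family 0.46 to 0.52 lower, while the SR proteins stayed between -0.06 and 0.004.

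Taken array by array, the family means had little spread in the controls. The mean of the Lsm genes was 0.85 to 0.92 above its control total mean in the control polysomal arrays, and that of the Snrp genes 0.45 to 0.53 above. The hnRNP mean was -0.52 to -0.46, the Prpf mean -0.39 to -0.33 and the SF3 mean -0.24 to -0.19. In each of these families the polysomal control arrays lay outside the range of the 4 total arrays. The U2af mean, which rests on 3 genes, was 0.42 to 0.53 in polysomal arrays but ranged from -0.18 to 0.32 among the control total arrays.

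**Figure D2:**
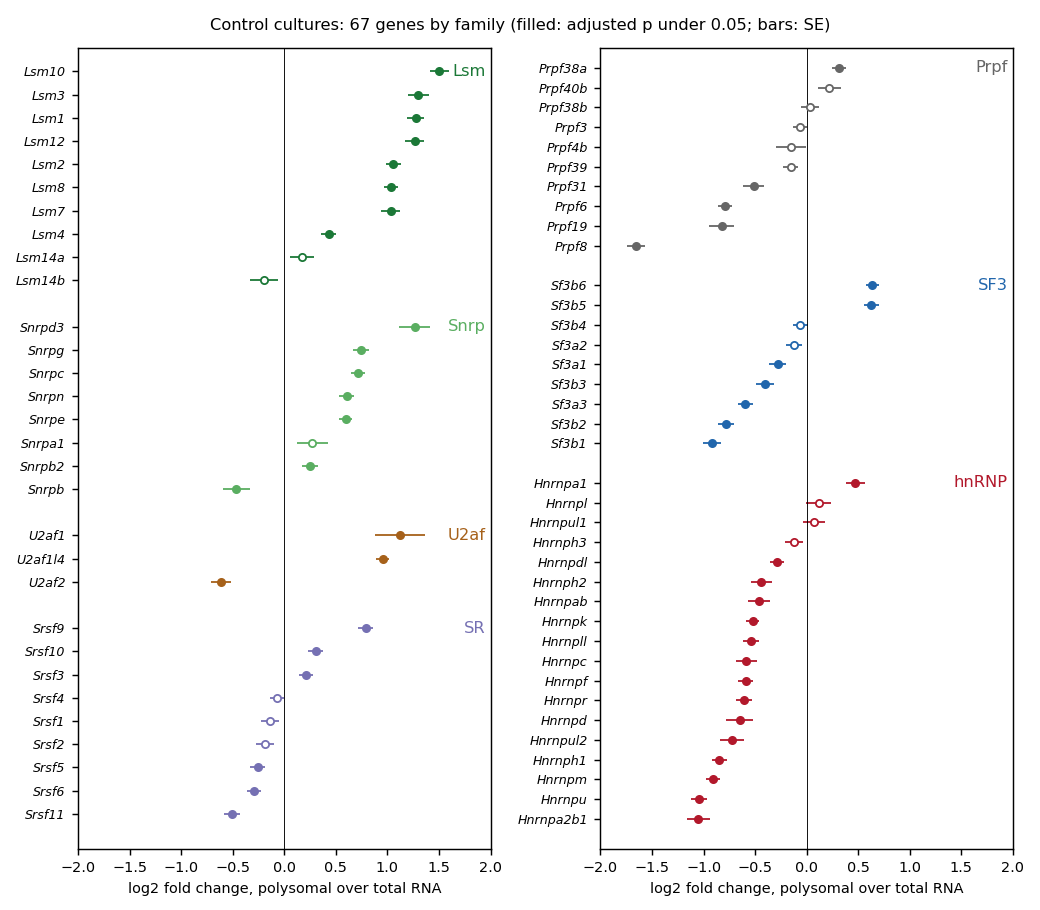
Log2 fold change, polysomal over total RNA, of each of the 67 genes in control cultures (n = 4 and 4), grouped by family; bars are limma's standard errors and filled points passed the adjusted threshold. Of the Lsm points, 9 of 10 lie to the right of 0, with Lsm14b at -0.20, and 15 of 18 hnRNP points lie to the left, from Lsm10 at 1.50 to Prpf8 at -1.66.

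Among the Lsm genes, whose proteins form the ring that binds U6 small nuclear RNA and a related ring that starts mRNA decay in the cytoplasm, 8 of 10 were higher in polysomal RNA, 0 were lower and 2 did not pass. Lsm10, a part of the U7 particle that trims histone mRNAs, read 8.84, 8.65, 8.66 and 8.64 in control total RNA and 10.26, 10.19, 10.19 and 10.16 in control polysomal RNA. Every polysomal array was above every total array, a difference of 1.50 ± 0.09 (SE) on the log2 scale or 2.83-fold (adjusted p = 5.94e-10). Lsm3, a subunit of both rings, read 10.78, 10.76, 10.62 and 10.66 in total RNA and 12.16, 12.02, 11.97 and 11.87 in polysomal RNA, without overlap (1.30 ± 0.10, 2.46-fold, adjusted p = 5.06e-09). Lsm1, which is particular to the decay ring, and Lsm8, which takes its place in the U6 ring, both rose, by 1.27 ± 0.08 and 1.03 ± 0.07. Lsm2, Lsm7 and Lsm4, also shared subunits, differed by 1.06, 1.03 and 0.43, and Lsm12 differed by 1.26. Both exceptions, Lsm14a (0.17 ± 0.12) and Lsm14b (-0.20 ± 0.13), encode larger proteins of cytoplasmic mRNA granules that carry an Lsm domain. The probe set of Lsm14a lay below the 25th percentile and may be at background, so it cannot show that a difference was absent. Lsm14a and Lsm14b belong to neither ring, but nor do Lsm10 of the U7 particle, which rose by 1.50, and Lsm12, which rose by 1.26.

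The Snrp genes encode the Sm ring shared by the U1, U2, U4 and U5 particles and proteins of single particles. Of the 8 genes, 6 were higher in polysomal RNA, 1 was lower and 1 did not pass. Snrpd3, an Sm ring subunit, read 10.38, 11.06, 10.49 and 10.61 in total RNA and 12.04, 12, 11.87 and 11.69 in polysomal RNA. The groups did not overlap although the second total array stood high (1.26 ± 0.15, 2.40-fold, adjusted p = 9.62e-07). The ring subunits Snrpg and Snrpe differed by 0.75 ± 0.08 and 0.60 ± 0.06, and Snrpn, a paralogue of Snrpb from an imprinted locus that is active in brain, by 0.60 ± 0.07. Snrpc, a protein of the U1 particle, differed by 0.71 ± 0.07. The U2 proteins changed less, with Snrpb2 at 0.25 ± 0.08 (adjusted p = 0.0146) and Snrpa1 at 0.27 ± 0.15 (adjusted p = 0.137). Their other probe sets gave 0.08 and 0.19 for Snrpb2, neither passing, and 0.14 and 0.25 for Snrpa1, of which only 1417352_s_at at 0.25 passed. Snrpb, another Sm ring subunit, went the other way. It read 12.07, 12.04, 12.03 and 12.03 in total RNA and 11.35, 11.42, 11.74 and 11.79 in polysomal RNA, and all polysomal values were lower and more widely spread (-0.47 ± 0.13, adjusted p = 0.0054). Snrpb is known in mammals for a regulated exon through which its protein limits its own mRNA.

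The U2af proteins recognise the 3′ splice site ahead of the U2 particle. U2af2, the large subunit, fell by 0.61 ± 0.10 on the log2 scale in polysomal RNA (adjusted p = 3.36e-05), from 10.67 to 10.76 in the total arrays to 10.07 to 10.15. U2af1l4, a close relative of the small subunit, read 9.23, 9.16, 9.25 and 9.22 in total RNA and 10.14, 10.18, 10.18 and 10.17 in polysomal RNA, a difference of 0.95 ± 0.06 with no overlap (adjusted p = 1.34e-09). U2af1, the small subunit, read 9.45, 10.58, 9.35 and 9.08 in total RNA and 10.91, 10.82, 10.72 and 10.5 in polysomal RNA. Here the groups overlapped through the second total array, and the difference was 1.12 ± 0.24 (adjusted p = 0.000677) with that array and 1.44 without it.

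SR proteins, which bind exonic enhancers and recruit the spliceosome, had no common direction. Of 9 genes, 3 were higher, 3 lower and 3 did not pass. Srsf9 read 11.08, 11.12, 10.97 and 11 in total RNA and 11.68, 11.9, 11.89 and 11.86 in polysomal RNA, without overlap (0.79 ± 0.07, adjusted p = 5.70e-08). Srsf10 (0.30 ± 0.07) and Srsf3 (0.21 ± 0.07) also rose. Of the other Srsf10 probe sets, 1418526_at and 1449121_at rose as well (0.62 and 0.44), whereas 1418527_a_at gave -0.185 without passing. Srsf11, which read 11.18 to 11.28 in total RNA and 10.65 to 10.79 in polysomal RNA, fell by 0.51 on the log2 scale. Srsf6 (-0.29 ± 0.07) and Srsf5 (-0.26 ± 0.07) fell less, and Srsf1, Srsf2 and Srsf4 lay at -0.14, -0.19 and -0.07 without passing, although the groups did not overlap for Srsf1 and Srsf2.

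The SF3 proteins are parts of the U2 particle that hold the branch point of the intron. Of 9 genes, 5 were lower in polysomal RNA, 2 were higher and 2 did not pass. Sf3b1, the large scaffold that contacts the branch point, read 11.31, 11.24, 11.36 and 11.31 in total RNA and 10.48, 10.47, 10.3 and 10.3 in polysomal RNA. All polysomal values were lower (-0.92 ± 0.08, 1.89-fold, adjusted p = 4.22e-08). Sf3b2 (-0.78 ± 0.08), Sf3a3 (-0.59 ± 0.07), Sf3b3 (-0.41 ± 0.09) and Sf3a1 (-0.28 ± 0.08) fell as well. The 2 genes that rose encode the small subunits of SF3B. Sf3b6, which touches the branch point, read 11.05, 11.02, 11.01 and 11 in total RNA and 11.65, 11.69, 11.66 and 11.63 in polysomal RNA (0.64 ± 0.06, adjusted p = 9.23e-08). Sf3b5 differed by 0.63 ± 0.07. Sf3a2 (-0.12 ± 0.08) and Sf3b4 (-0.06 ± 0.07) did not pass, so that subunits of 1 complex divided differently between the fractions.

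The Prpf genes, named after yeast pre-mRNA processing mutants, encode proteins of the U4/U6 and U5 particles and of the activated spliceosome. Of 10 genes, 4 were lower in polysomal RNA, 1 was higher and 5 did not pass. Prpf8, the U5 protein at the catalytic centre, had the largest decrease of all 67 genes. It read 11.7, 11.52, 11.61 and 11.54 in total RNA and 9.82, 9.95, 9.97 and 10.01 in polysomal RNA, far outside each other's range (-1.66 ± 0.09, 3.15-fold, adjusted p = 1.45e-10). Prpf19, a ubiquitin ligase of the activated spliceosome, fell by 0.82. Prpf6, which bridges U5 and U4/U6, fell by 0.79 on its brightest probe set, but its other sets did not pass. Prpf31, a U4/U6 protein, fell by 0.52 on its brightest probe set, whereas another of its probe sets rose. Prpf38a, which acts during activation, was the gene that rose (0.32 ± 0.07). Prpf3, Prpf4b, Prpf38b, Prpf39 and Prpf40b ranged from -0.15 to 0.22.

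In the hnRNP family 14 of 18 genes were lower in polysomal RNA, 1 was higher and 3 did not pass. Hnrnpa2b1, which binds RNA in the nucleus and is known in neural cells for mRNA transport, read 13.15, 13.05, 13.14 and 13.08 in total RNA and 11.92, 12.1, 12.05 and 12.15 in polysomal RNA. The polysomal values were all lower (-1.05 ± 0.11, 2.07-fold, adjusted p = 2.72e-07). Hnrnpu, a nuclear scaffold protein, read 12.4, 12.43, 12.34 and 12.39 against 11.35, 11.33, 11.31 and 11.39, with a narrow spread in both groups (-1.04 ± 0.08, 2.06-fold, adjusted p = 2.98e-09). Hnrnpm (-0.91 ± 0.07) and Hnrnph1 (-0.85 ± 0.07) followed, and the other 10 decreases ran from -0.73 for Hnrnpul2 to -0.29 for Hnrnpdl. Hnrnpa1, a splicing repressor that shuttles to the cytoplasm, was the exception. It read 10.56, 10.35, 10.6 and 10.48 in total RNA and 11, 10.98, 11.01 and 10.89 in polysomal RNA (0.47 ± 0.09, adjusted p = 0.000193), but another of its probe sets gave -0.01 ± 0.07. Hnrnph3, Hnrnpul1 and Hnrnpl lay between -0.12 and 0.12 and did not pass.

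**Figure D3:**
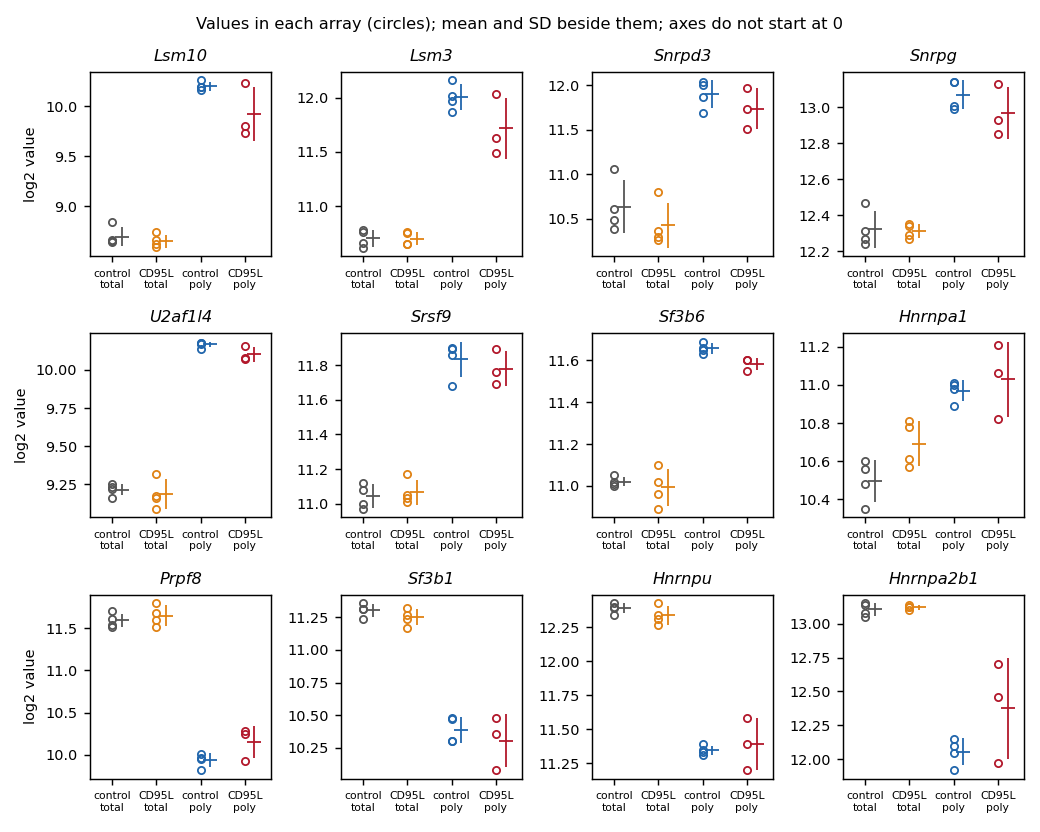
Log2 value of 12 member genes in each array (circles), with the mean and SD of each group beside them; the vertical axes differ between panels and do not start at 0. Polysomal values stand above total values for Lsm10, Lsm3, Snrpd3, Snrpg, U2af1l4, Srsf9, Sf3b6 and Hnrnpa1 and below them for Prpf8, Sf3b1, Hnrnpu and Hnrnpa2b1; of the 3 treated polysomal arrays, the one at 11.97 stands apart for Hnrnpa2b1.

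The same division was measured a second time in the treated cultures, whose arrays are separate from those of the controls. There 24 of the 67 genes were higher in polysomal RNA (35.8%) and 26 lower (38.8%), against 29.6% and 21.8% of all genes. Of all probe sets, 51.3% passed in either direction. The groups did not overlap for 48 of the 67 member genes, against 5978 of all 12393 genes (48.2%). The family medians were 0.99 for the Lsm genes, 0.92 for the U2af genes, 0.68 for the Snrp genes, -0.02 for the SR proteins, -0.16 for the Prpf genes, -0.32 for the SF3 genes and -0.42 for the hnRNP genes. The sign was the same in both cultures for 65 of 67 genes, and 49 passed in both, all 49 with the same sign. These counts were made for the members only. The share over all genes was not counted, so they do not show anything particular to the members. Both comparisons also used 1 common estimate of the spread per probe set. Across the 67 genes the log2 fold changes of both cultures correlated with Pearson's r = 0.976 and Spearman's rho = 0.979, against 0.961 and 0.915 over all 12393 genes. These are correlations across genes, which share arrays and are not independent. The median absolute difference between the cultures was 0.0975.

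**Figure D4:**
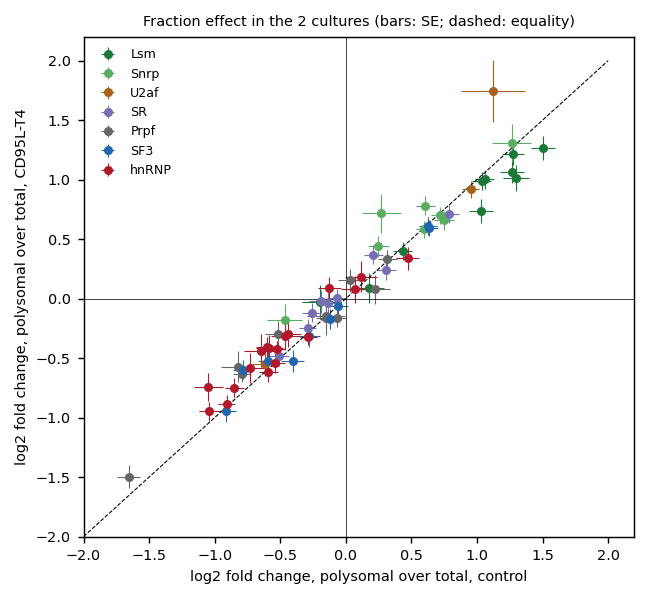
Log2 fold change, polysomal over total RNA, of each of the 67 genes in control cultures (horizontal) and in CD95L-T4 cultures (vertical); bars are standard errors, the dashed line marks equal values and colours the families. Points follow the dashed line, with U2af1 farthest above it at 1.12 and 1.74. On the same side of 0 in both cultures lie 65 of 67, a count not made over all genes.

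Gene length moved with the division. Across the 67 genes the control log2 fold change and the log2 of the gene's span on the genome (GRCm38.p6, introns included) had a Spearman's rho of -0.418, and across 12369 genes of -0.311, so that longer genes tended to be lower in polysomal RNA in general. With the mean log2 level rho was -0.166 among the members. A list of other splicing genes was chosen with earlier results of these data known. Of 88 measured genes of 106 listed, 22 were higher (25%), 36 lower (40.9%) and 30 did not pass, against 34.3% and 41.8% of the members and 33.5% and 23.2% of all genes. The median log2 fold change was -0.125 in the list and in the 67 members. Its largest increases were those of Gemin7 (1.48 ± 0.12), a small protein of the complex that loads Sm rings, and of Snrnp25 (1.47 ± 0.09), a small protein of the minor spliceosome. Its largest decreases were those of Snrnp70 (-1.08 ± 0.12), the U1 protein that binds its RNA loop, and of Tardbp (-1.08 ± 0.10), an hnRNP-like protein known for controlling its own mRNA.

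Because these genes make several transcript forms, the probe sets of each gene were compared with each other. Of the 36 genes with several probe sets, 13 had all of them lower in polysomal RNA and 5 had all of them higher (Sf3b5, Sf3b6, Snrpd3, Snrpg and Srsf3). In 13 some passed and in 1 direction only, in 3 none passed (Sf3a2, Sf3b4 and Srsf2), and in Prpf31 and Hnrnpdl probe sets passed in both directions. Tested on the within-array difference between each probe set and the gene's brightest one, 40 of 84 pairs in 23 genes differed between fractions in control cultures, against 38.6% of 7987 pairs of all genes. In treated cultures 34 of the 84 did, against 2924 of 7987 pairs of all genes (36.6%), and 30 pairs passed in both. The median absolute difference was 0.26 among member pairs and 0.22 among all pairs.

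**Figure D5:**
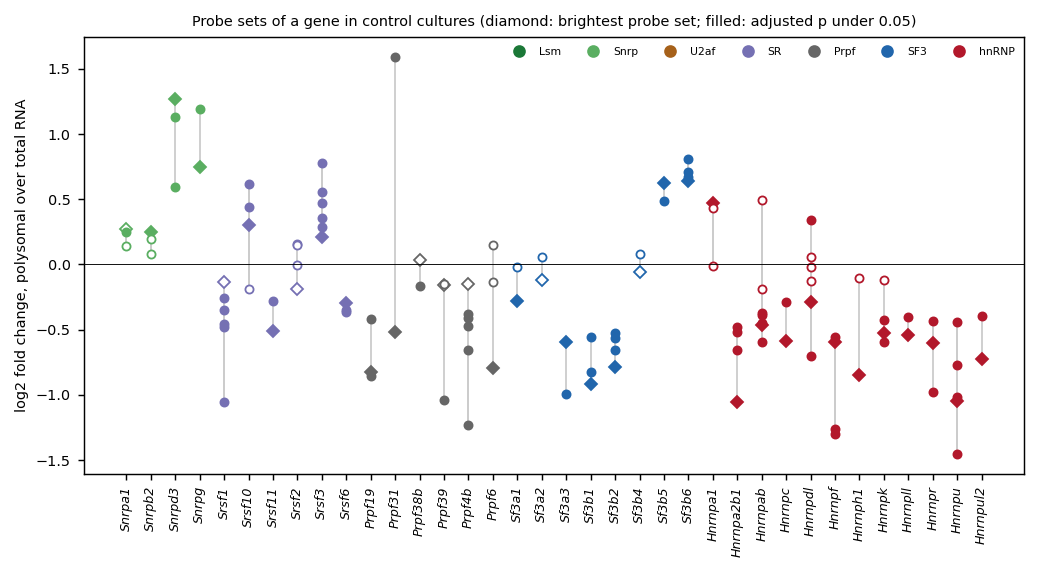
Log2 fold change, polysomal over total RNA in control cultures, of every probe set of the 36 genes with several; diamonds mark the brightest probe set, filled symbols passed the adjusted threshold and grey lines join the probe sets of a gene. Prpf31 spans -0.52 to 1.59, while the probe sets of Sf3b2 and Sf3b6 stay on 1 side of 0.

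Prpf31 had the widest split. Its brightest probe set, 1448633_at, read 9.6, 9.57, 9.57 and 9.53 in total RNA and 9.15, 9.01, 9.03 and 9.02 in polysomal RNA. Probe set 1453005_at read 7.38, 7.18, 7.1 and 7 in total RNA and 8.96, 8.9, 8.57 and 8.6 in polysomal RNA. The first fell by 0.52 and the second rose by 1.59 on the log2 scale, both without overlap, and the difference between them was 2.11 ± 0.14 (adjusted p = 1.19e-07) in control and 1.62 in treated cultures. Hnrnpdl was the other gene with opposite calls, with 1424251_a_at at -0.29 and 1428224_at at 0.34. Pairs that passed in opposite directions made up 2 of the 84 member pairs and 2.73% of all pairs.

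Srsf1, whose mRNA is known for retained and alternative 3′ introns, had 6 probe sets. The brightest, 1428099_a_at, read 12.39, 12.32, 12.45 and 12.33 in total and 12.18, 12.25, 12.24 and 12.27 in polysomal RNA, a difference of -0.14 that did not pass. Probe set 1452430_s_at read 11.26, 11.63, 11.62 and 11.54 in total RNA and 10.42, 10.64, 10.38 and 10.41 in polysomal RNA (-1.05 ± 0.12, adjusted p = 7.18e-07). The brightest set thus gave the smallest change of the 6. Prpf4b, a kinase of splicing proteins, ranged from -0.15 on its brightest probe set to -1.23 on 1436427_at, and Prpf39, whose yeast relative belongs to the U1 particle, from -0.15 to -1.04 on 1452688_at. For Hnrnpf the brightest set, which also matches related transcripts by its suffix, gave -0.59 and 2 others gave -1.26 and -1.30. For Hnrnph1 the brightest set gave -0.85 and the other, dimmer one -0.10. All 3 sets of Snrpd3 rose, by 1.26, 1.13 and 0.59. The brightest set of Prpf6, at percentile 78.5, gave -0.79. Its set 1454789_x_at, at percentile 69.4, gave -0.135 and the dim 1426026_at, at percentile 30.6, gave 0.15, neither of them passing. Both differed from the brightest set in control cultures. Among the 151 probe sets, 18 carry the suffix _x_at and 17 _s_at, by which the maker marks probes shared with other transcripts. For these a related gene may contribute to the signal. The positions of the probes on the transcripts were not used here.

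Promoter sequence was read for the 58 of 67 genes in the RefSeq promoter table (GRCm38.p6), which covers 250 bases before to 50 bases after each annotated start. The ETS core CCGGAAG, searched on both strands, was in the promoters of 19 of 58 member genes (32.8%), against 9.93% of 27025 genes in the table and 16.4% of the 9883 genes measured on the array. It was found in 6 of 7 SF3 genes, 4 of 7 Snrp genes, 4 of 10 Prpf genes, 3 of 9 SR genes, 2 of 16 hnRNP genes and 0 of 7 Lsm genes. The CCAAT box was in 30 of 58 (51.7%) against 41.1% of all genes and 42.3% of those measured, and in 11 of 16 hnRNP genes. The YY1 motif (AAGATGGC) was in 4 of the 58 (6.90%), against 3.19% of all genes and 4.39% of those measured, and the TATA box (TATAAA) in 6 (10.3%), against 15.7% and 11.9%. The E box (CACGTG) was in 7 (12.1%), against 8.09% and 10.8%, and the CGCG element (TCTCGCGA) in 5 (8.62%), against 1.13% and 2.06%. The NRF1 palindrome was in 1 (1.72%), against 1.07% and 1.82%. All were searched on both strands, and matches of different motifs may overlap. A match describes these letters only. The windows below run from 60 bases before to 20 bases after the start, 5′ to 3′ on the gene's strand, with the motif in capitals. They show the ETS core in Sf3a1 and Sf3b2, which were lower in polysomal RNA, and in Snrpc, which was higher, and the CCAAT box in Hnrnpk, which was lower (-0.53 ± 0.06).
Sf3a1, chr11:4160294-4160373, plus strand: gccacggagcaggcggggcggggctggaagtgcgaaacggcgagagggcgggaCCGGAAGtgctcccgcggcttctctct
Sf3b2, chr19:5295436-5295515, minus strand: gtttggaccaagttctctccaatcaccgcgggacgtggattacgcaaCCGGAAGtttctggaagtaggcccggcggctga
Snrpc, chr17:27840027-27840106, plus strand: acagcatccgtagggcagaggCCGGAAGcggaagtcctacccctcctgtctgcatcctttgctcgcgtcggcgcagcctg
Hnrnpk, chr13:58402098-58402177, minus strand: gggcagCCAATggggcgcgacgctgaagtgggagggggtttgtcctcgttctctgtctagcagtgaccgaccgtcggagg
A relation between a motif and the division between the fractions was not tested.

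The second question was whether CD95L-T4 changed these mRNAs after 48 h. In total RNA 0 of 67 genes passed the adjusted threshold, as did 0% of all genes (limma). At an unadjusted p under 0.05 there was 1 of the 67 member genes, against 426 of all 12393 genes (3.44%). The groups did not overlap for 3 of the 67 members, against 339 of all genes (2.74%). The lowest adjusted p among members was 0.997 and their median log2 fold change, treated over control, -0.01. Hnrnpa1 had the smallest p. It read 10.56, 10.35, 10.6 and 10.48 in control and 10.61, 10.57, 10.78 and 10.81 in treated total RNA, with overlapping groups apart by 0.20 ± 0.09. Lsm7 (0.18 ± 0.09) and Snrpn (-0.14 ± 0.07) came next, and were at 0.12 and -0.09 without replicate 3 of control total RNA.

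In polysomal RNA 0 of 67 genes passed as well, and 0% of all genes. At an unadjusted p under 0.05 there were 6 of the 67 members, against 1176 of all 12393 genes (9.49%). Groups without overlap were found for 4 of the 67 members, against 679 of all genes (5.48%). The median was 0.05 over the members, 0.08 over the hnRNP genes and -0.11 over the Lsm genes. On their brightest probe sets all 18 hnRNP genes had a value above 0, from 0.02 to 0.32. Of the 10 Lsm genes, 8 had a value below 0. None of these passed. Over all 12393 genes, 6290 lay above 0 and 6095 below, and genes share arrays, so such counts are not independent. Other probe sets of hnRNP genes lay on both sides of 0. They ran from -0.30 on 1434391_at of Hnrnpu, without overlap, to 0.695 on the dim 1455740_at of Hnrnpa1. Lsm10 read 10.26, 10.19, 10.19 and 10.16 in control and 9.73, 10.23 and 9.8 in treated polysomal RNA (-0.28 ± 0.10, adjusted p = 0.475). Lsm3 read 12.16, 12.02, 11.97 and 11.87 against 11.63, 12.03 and 11.49 (-0.29 ± 0.11, adjusted p = 0.483). Hnrnpa2b1 read 11.92, 12.1, 12.05 and 12.15 against 12.7, 11.97 and 12.46 (0.32 ± 0.12, adjusted p = 0.483). In these readings of all 3 genes the second treated array lay within the control range and the others lay outside it. The rise of Hnrnpa2b1 was seen on its brightest probe set. Its other sets gave -0.02 (1433829_a_at), 0.09 (1434047_x_at) and -0.21 (1433830_at), none of which passed.

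That array decided the count. Replicate 2 of the treated polysomal arrays had a mean hnRNP level of -0.59 relative to control total RNA, against -0.25 and -0.28 in the other two treated arrays and -0.52 to -0.46 in the controls. Its Lsm mean was 0.91, against 0.78 and 0.70 in the other two and 0.85 to 0.92 in the controls. Its poly-A control signal was 8.38, the highest of the 15 arrays, against 7.03 and 7.14, and its actin 3′ minus 5′ difference was 0.68, between their 0.59 and 1.03. The part of these readings in the result was not tested. Without replicate 2, in an alternative that leaves 2 treated polysomal arrays, 9 of the 67 member genes were higher and 2 lower after CD95L-T4. Over all 12393 genes 382 were higher (3.08%) and 408 lower (3.29%). By the brightest probe set of each gene, the 9 were Hnrnpa2b1 (0.53, adjusted p = 0.0092), Hnrnpab (0.45), Hnrnpc (0.36), Hnrnpd (0.44), Hnrnpl (0.40), Hnrnpul2 (0.33), Prpf8 (0.33), Snrpb (0.55) and Srsf2 (0.32). The 2 were Lsm10 (-0.44, adjusted p = 0.00925) and Lsm3 (-0.45, adjusted p = 0.0124). The median of the hnRNP genes was then 0.19 and that of the Lsm genes -0.17, and Hnrnpa1 turned from 0.06 to -0.03 without passing in either. Leaving out the first treated array instead gave 0.16 for Hnrnpa2b1 and -0.19 for Lsm10, and leaving out the third gave -0.18 for Lsm3. When only the 6 remaining polysomal arrays were fitted, an alternative chosen after seeing the data, 0 genes passed, with a lowest adjusted p of 0.0964. At an unadjusted p under 0.05 there were then 22 of the 67 members, against 18.2% of all genes. The control polysomal arrays enter both this comparison and the fraction comparison of the controls.

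Whether CD95L-T4 acted differently on the fractions was tested by the interaction. It passed for 0 of 67 genes and 0% of all genes, with 1 member at an unadjusted p under 0.05 against 3.99% of all genes and a lowest adjusted p of 0.897. Lsm7 (-0.29 ± 0.13), Snrpa1 (0.45 ± 0.22) and Lsm3 (-0.29 ± 0.15) had the smallest p. The value of Lsm3 was -0.44 without the second and -0.17 without the third treated polysomal array. Without the second treated polysomal array it passed for 0 members, with 0.00807% of all genes lower. The fraction comparison in treated cultures without that array gave 25 of the 67 members higher and 23 lower, against 29.2% and 20.6% of all genes. The median of the members turned from -0.04 to 0.03. The SR median turned from -0.02 to 0.09, while the medians of the Lsm genes (0.88), U2af genes (0.89), Snrp genes (0.64), Prpf genes (-0.20), SF3 genes (-0.27) and hnRNP genes (-0.30) kept their sign.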

How the data were processed

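The authors deposited 1 table of log2 values of Affymetrix arrays, which they had normalised between arrays and rounded; the method is not given in the sources used here. Per the labels, groups were read from titles. Members and gene lists were chosen with earlier results of these data known. All 22626 probe sets left after 64 control probe sets were fitted in R 4.3.3 (limma 3.58.1), each group of the 15 arrays having its own mean. All 5 contrasts were tested two-sided and p-values adjusted by Benjamini and Hochberg over all probe sets, with a threshold of 0.05. The table carries no read depth, detection calls or batch, and precision is set by how many arrays there are. Within-array differences of probe sets of 1 gene were fitted the same way over 7987 pairs. The script was tested on simulated data. Named genes were, per family, up to 2 largest increases and 2 largest decreases past the threshold without overlap, the 3 smallest p of each treatment contrast and the interaction, the U2af genes, the 8 genes with the largest difference in a called pair and 4 of the other splicing genes; further genes were named after their values were seen. P-values measure the spread between these arrays. Alternatives were other scalings, filters on dim probe sets, variance models, array weights, a replicate block, the mean of a gene's probe sets, a fold threshold and leaving out each array. The titles do not say whether equal replicate numbers share a culture, and samples were not treated as paired. Deviations from the group mean correlated at -0.234 to 0.197 between equal numbers, which cannot show that no samples were paired.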

Additional observations from a re-analysis of the deposited data

Results flagged for a closer look

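In 4 of 129 tests of a named gene or a family median in a group of 4 arrays, 1 array lay far from the others by Dixon's criterion, where chance gives about 5%. Lsm10 read 8.84 in replicate 1 of control total RNA, where the others read 8.64 to 8.66. Prpf38a read 10.02 in replicate 2 of control total RNA, against 9.87 to 9.88. Prpf31 read 9.15 in replicate 1 of control polysomal RNA, against 9.01 to 9.03. Hnrnph1 read 12.15 in replicate 2 of control total RNA, against 12.21 to 12.22. Without the array concerned, the log2 fold changes, polysomal over total, were 1.55 for Lsm10, 0.35 for Prpf38a and -0.55 for Prpf31. That of Hnrnph1 ran from -0.89 to -0.80 over all arrays left out.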

How the results depend on the processing

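Of 714 alternative values for 42 named genes and contrasts, 710 kept their side of the threshold, 0 turned their direction and 4 passed only under the alternative: Srsf1 between fractions under quantile normalisation (-0.23) and, without replicate 2 of treated polysomal RNA, Lsm10 (-0.44), Lsm3 (-0.45) and Hnrnpa2b1 (0.53) under treatment. That array also moved the count of members changed in polysomal RNA, which was 0 to 11 over the arrays left out, and turned the median of the treated fraction effect from -0.02 to 0.09 for the SR proteins and from -0.04 to 0.03 for all members, the SF3 median under treatment in polysomal RNA from -0.04 to 0.005, and Hnrnpa1 there from 0.06 to -0.03. The counts for treatment and the interaction were 0 in every other setting run. Over the arrays left out, counts between fractions ranged from 50 to 52 in control and 48 to 50 in treated cultures. Those of the other splicing genes ranged from 56 to 60 and those of probe set pairs from 31 to 41. A log2 fold change over 0.5 left 33 in treated cultures and also left fewer in control cultures, where called genes such as Hnrnpa1 (0.47) lay below it. Family medians moved by more than the spread between arrays under quantile normalisation (hnRNP -0.63, SR -0.23), equal array medians (hnRNP -0.47, SR -0.045, SF3 -0.19, Snrp 0.69, Lsm 1.14, U2af 1.05) and means of all probe sets (hnRNP -0.46, SR -0.07, SF3 -0.15), and the Snrp median ran from 0.59 to 0.63 and the Prpf median from -0.20 to -0.10 over arrays left out; the cause was not tested. The median of all genes was 0.10 as deposited and 0.19 with equal medians. With the replicate number as a block, counts were 0 in the treatment contrasts and the interaction, and 51 and 49 between fractions. They were 58 for the other splicing genes and 36 for pairs. No count changed by over 1.5 times with the block, which does not show that the same genes or pairs passed. Dim probe sets such as that of Lsm14a have no detection call.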
